A study of Mus musculus with 2 samples.

Results

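The genes described here are 9 secreted antagonists of WNT signalling, taken by name from a table of 21878 genes: the frizzled-related genes Sfrp1, Sfrp2, Sfrp4, Sfrp5 and Frzb, the dickkopf genes Dkk1, Dkk2 and Dkk3, and Wif1. All 9 were found, and the family was chosen by the FPKM values of its members in these same libraries, some of which were known to be higher and others lower in one of them. The cells were primary chondrocytes of C57BL/6 mice in culture, and both groups received lentivirus. One culture carried a short hairpin RNA against Gpx4 (shGpx4, labelled as GPX4 knockdown) and the other a control hairpin (shNC). Each group is 1 library, made with a stranded mRNA kit. The number, age and sex of the animals, the hairpin sequence and the time after infection are not stated in the labels. The series was made to learn how GPX4, a peroxidase that removes lipid hydroperoxides, acts in these cells.

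WNT proteins are secreted ligands that bind Frizzled receptors and the coreceptors LRP5 and LRP6 and thereby stabilise beta-catenin, which switches genes on together with TCF and LEF factors. Secreted antagonists act before that step. The frizzled-related proteins carry a domain like the ligand-binding domain of Frizzled and bind WNT proteins, as does WIF1 through a domain of its own, while DKK1 and DKK2 bind LRP5 and LRP6. DKK3 is the divergent dickkopf, for which binding to these coreceptors is not established. In cartilage and bone these proteins are known as local brakes on WNT signalling, and Frzb was first purified from cartilage.

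Promoter sequence from RefSeq was found for 6 of the 9 genes (Sfrp2, Sfrp5, Frzb, Dkk1, Dkk2 and Wif1) in GRCm38.p6, the patch release of the build the authors used. Each window runs from 250 bases before to 50 bases after an annotated start site. The Sfrp2 window begins inside the gene as annotated, whose first base is 83765750, so it is not the window of the outermost start. The windows of Sfrp2, the gene with the lowest ratio, Frzb, a gene on the other side of 0, and Dkk1, a known beta-catenin target that was near 0 here, are printed 5′ to 3′. Capitals mark the core letters bound by TCF and LEF factors (CTTTGA or CTTTGT, on either strand).
Sfrp2, chr3:83766071-83766370, plus strand: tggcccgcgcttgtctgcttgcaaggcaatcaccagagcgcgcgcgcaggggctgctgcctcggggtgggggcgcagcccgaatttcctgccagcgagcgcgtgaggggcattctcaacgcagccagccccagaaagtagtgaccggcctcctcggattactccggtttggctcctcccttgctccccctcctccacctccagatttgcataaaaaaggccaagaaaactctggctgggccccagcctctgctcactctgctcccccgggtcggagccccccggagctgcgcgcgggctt
Frzb, chr2:80447347-80447646, minus strand: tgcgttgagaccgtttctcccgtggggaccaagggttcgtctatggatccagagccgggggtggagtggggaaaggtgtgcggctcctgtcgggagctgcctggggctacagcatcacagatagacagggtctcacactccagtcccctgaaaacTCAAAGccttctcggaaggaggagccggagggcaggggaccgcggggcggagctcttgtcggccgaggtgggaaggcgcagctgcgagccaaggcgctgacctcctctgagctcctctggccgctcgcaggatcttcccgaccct
Dkk1, chr19:30549447-30549746, minus strand: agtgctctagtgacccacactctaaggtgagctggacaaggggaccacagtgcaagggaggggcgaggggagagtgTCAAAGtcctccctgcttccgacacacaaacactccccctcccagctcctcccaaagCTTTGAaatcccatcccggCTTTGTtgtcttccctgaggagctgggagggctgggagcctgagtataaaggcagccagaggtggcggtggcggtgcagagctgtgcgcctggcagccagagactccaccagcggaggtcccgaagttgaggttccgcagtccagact
The Sfrp2 window held none of these letters, the Frzb window held 1 match at position -95 from the start site, and the Dkk1 window held 3, at -174, -117 and -98. The windows of Wif1 and Sfrp5 held none and that of Dkk2 held 1. Of 32851 promoter windows of the same length, 31.2% held at least 1 match. The G and C content was 66.0% in the Sfrp2 window, 64.7% in the Frzb window and 60.7% in the Dkk1 window, against a median of 52.7% over all windows, and the CG pairs numbered 22, 20 and 9 against a median of 7. A match is only a match of letters, and no binding was measured.

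Values are FPKM, reads scaled by gene length and library total, so levels of different genes can be compared. The totals recovered from the values were 21313211 reads for shGpx4 and 19729142 reads for shNC. Genes with a mean of at least 1 FPKM over both libraries, 10997 of them, are called measured. Unless the plain FPKM ratio is named, a ratio is the log2 of shGpx4 over shNC after 1 FPKM was added to each value. Ratios of summed levels are plain FPKM ratios. With 1 library per group nothing was tested, and the 95% counting intervals, which belong to the plain FPKM ratio, cover counting error only and not the spread between cultures. Such an interval lay wholly on one side of equal levels for 45.3% of all measured genes. Gpx4 itself was at 96.2 FPKM in shGpx4 and 161 FPKM in shNC (log2 ratio -0.73). Of the 18 chondrocyte markers found, 9 were measured, and they summed with the rest to 2026 FPKM in shGpx4 and 2017 FPKM in shNC. Col2a1 (58.4 FPKM in shGpx4 and 8.96 FPKM in shNC) and Lect1 (270.0 and 124 FPKM in shGpx4 and shNC) were at least 1.5-fold higher and none was lower by that size. Over all measured genes 2.99% were higher and 1.96% lower by that size. Prg4, at 203 FPKM in shGpx4 and 135 FPKM in shNC, was just short of it with 1 FPKM added (0.582). Its plain log2 ratio of 0.5855 was just past 1.5-fold (0.5850). Comp, at 1421 FPKM in shGpx4 and 1666 FPKM in shNC, made up most of both sums and was lower in shGpx4. The near-equal sums thus rest on Comp, and the other markers together were higher in shGpx4. Sox9 was at 18.2 FPKM in shGpx4 and 21.8 FPKM in shNC. The aggrecan gene Acan had 1 read in shGpx4 and was listed at 0 in shNC, and both libraries listed Matn1 and Epyc at 0, so some defining cartilage transcripts were at or near 0 while others were abundant. The cells are called chondrocytes as labelled.

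The antagonists did not go one way. Of the 6 measured genes 2 were at least 1.5-fold higher in shGpx4 (Sfrp1 and Sfrp4), 1 was at least 1.5-fold lower (Sfrp2) and Frzb, Wif1 and Dkk3 lay between. Over all measured genes 2.99% were higher by this size and 1.96% lower. The same 3 antagonists passed at least 2-fold, a size that 1.02% of measured genes passed upward and 0.527% downward. Since the genes were chosen with these values known, nothing is read from those shares. The median ratio of the 6 was 0.25 and that of all measured genes -0.04. In cultures sequenced in bulk, fewer cells that express a gene and less RNA per cell cannot be told apart.

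**Figure D1:**
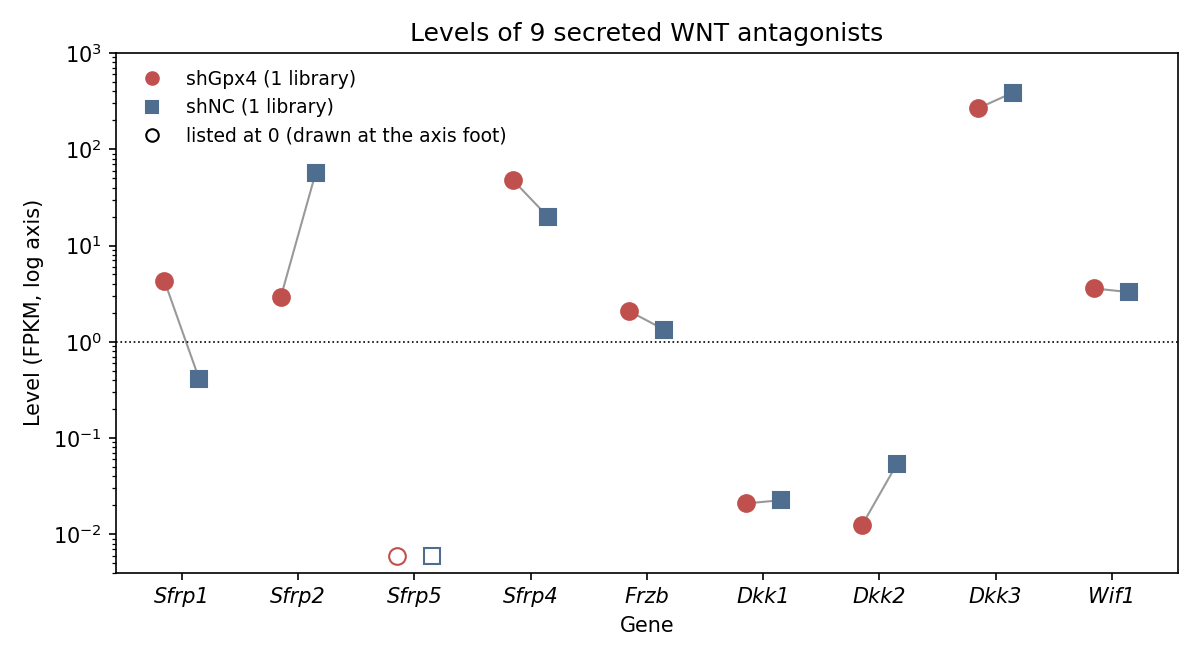
Level of each antagonist (x axis) in FPKM on a log axis (y axis), with a circle for the shGpx4 library and a square for the shNC library, and open symbols at the foot of the axis for genes listed at 0. The dotted line is 1 FPKM. The line between the symbols slopes down to the right for Sfrp1, Sfrp4, Frzb and, slightly, Wif1, and up for Sfrp2 and Dkk3. It also rises for Dkk1 and Dkk2, but these levels rest on 1 read each in shGpx4 and on 1 and 4 reads in shNC.

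Sfrp2, which encodes a frizzled-related protein found in many mesenchymal cells, was at 2.89 FPKM in shGpx4 and 56.4 FPKM in shNC. The shGpx4 level was thus low and the shNC level among the higher ones of the group. The plain FPKM was 19.5-fold lower in shGpx4 (counting interval 16.5 to 23.3), and the reads behind it numbered at least 140 in shGpx4 and 2531 in shNC. The ratio of -3.88 was the lowest of all 10997 measured genes. The gene lies on chromosome 3 from 83765750 to 83774314 (GRCm38.p6).

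Sfrp1, which forms one subgroup of frizzled-related genes with Sfrp2 and Sfrp5, was higher in shGpx4. It was at 4.29 FPKM in shGpx4 and 0.407 FPKM in shNC, with at least 467 reads in shGpx4 and 41 in shNC. The plain FPKM was 10.5-fold higher in shGpx4 (counting interval 7.65 to 14.9). Adding 1 FPKM to both values weighs heavily at this level and gave a ratio of 1.91, and even so 7 measured genes had a higher one. Sfrp1 lies on chromosome 8 from 23411383 to 23449632. Sfrp5, the remaining gene of this subgroup, was listed at 0 in both libraries.

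Within the pair the order reversed. The level of Sfrp2 was 0.674 times that of Sfrp1 in shGpx4 and 139 times that of Sfrp1 in shNC. Their sum with Sfrp5 was 7.18 FPKM in shGpx4 and 56.8 FPKM in shNC, so the Sfrp1 difference of 3.88 FPKM was small beside the Sfrp2 difference of -53.5 FPKM (shGpx4 minus shNC).

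Sfrp4 and Frzb form the other subgroup of frizzled-related genes, and both were higher in shGpx4. Sfrp4, which encodes a regulator of cortical bone, was at 47.5 FPKM in shGpx4 and 19.8 FPKM in shNC. The plain FPKM was 2.39-fold higher (counting interval 2.19 to 2.62; at least 1782 reads in shGpx4 and 689 in shNC), and the ratio of 1.22 was exceeded by 55 measured genes. Frzb was at 2.07 FPKM in shGpx4 and 1.34 FPKM in shNC, with at least 129 reads in shGpx4 and 77 in shNC. Its plain FPKM was 1.55-fold higher (counting interval 1.16 to 2.08), while its ratio of 0.40 stayed under 1.5-fold because of the added 1 FPKM. Sfrp4 lies on chromosome 13 from 19623175 to 19632825 and Frzb on chromosome 2 from 80411970 to 80447396.

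Dkk3 was the most abundant antagonist in both libraries, at 266 FPKM in shGpx4 and 389 FPKM in shNC. The plain FPKM ratio was 0.685 (counting interval 0.667 to 0.703), and the reads numbered at least 9983 in shGpx4 and 13496 in shNC. Its ratio of -0.54 lay just short of 1.5-fold (-0.58), and 250 measured genes had a lower one. The length behind these reads, 1760 bases, was 52.4% of the coding transcript in GENCODE M21, so the true reads may be a multiple and the interval narrower. Dkk3 lies on chromosome 7 from 112116019 to 112159482. The coreceptor-binding members were almost silent: Dkk1 had 1 read in each library, 0.021 FPKM in shGpx4 and 0.023 FPKM in shNC, and Dkk2 had 1 read in shGpx4 and 4 in shNC. In these libraries 3 reads would give 0.063 and 0.068 FPKM of Dkk1, in shGpx4 and shNC. No fold is given for either gene.

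Wif1, which encodes the WNT-binding factor WIF1, was at 3.58 FPKM in shGpx4 and 3.28 FPKM in shNC. The 2 libraries were within counting error of each other: the plain FPKM ratio was 1.09 (counting interval 0.870 to 1.37), with at least 171 reads in shGpx4 and 145 in shNC. That interval leaves room for a difference in either direction. Wif1 lies on chromosome 10 from 121034004 to 121100642.

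**Figure D2:**
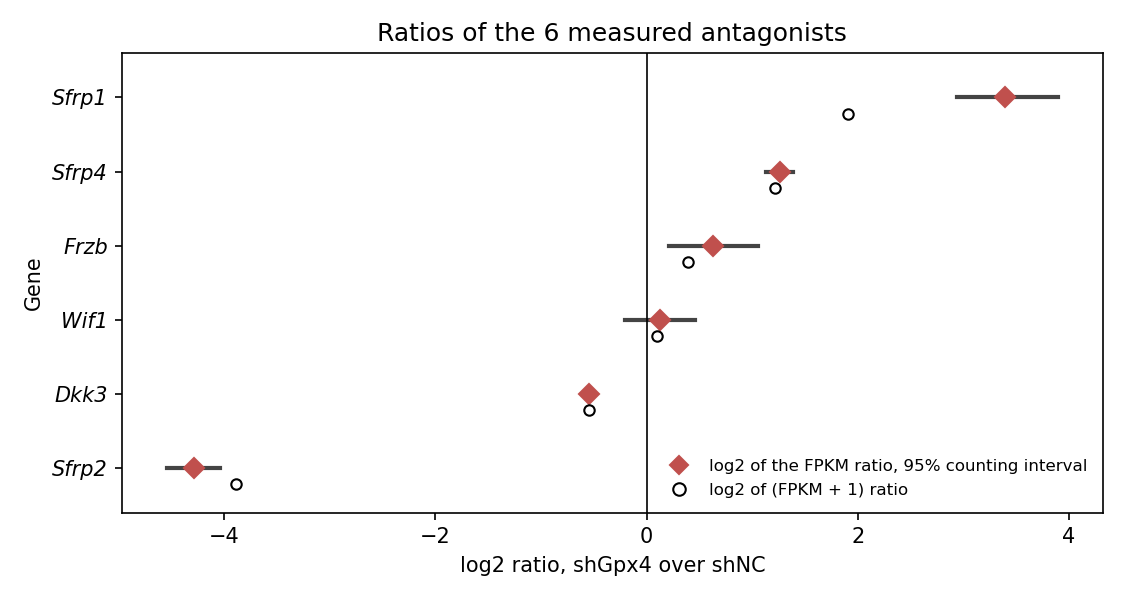
log2 ratio of shGpx4 over shNC (x axis) for the 6 measured antagonists (y axis); diamonds are the plain FPKM ratio, bars its 95% counting interval and open circles the ratio of (FPKM + 1). Sfrp1, Sfrp4 and Frzb lie right of 0, Sfrp2 and Dkk3 lie left of it, and the bar of Wif1 crosses 0.

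**Figure D3:**
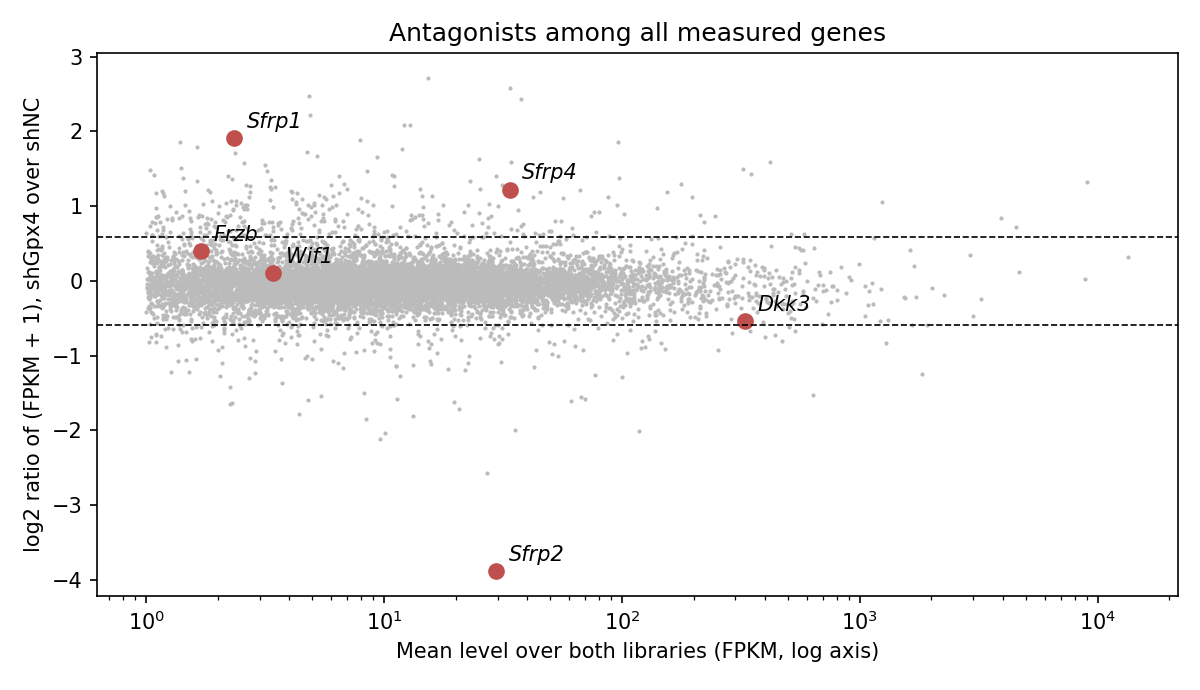
log2 ratio of (FPKM + 1), shGpx4 over shNC (y axis), against mean FPKM on a log axis (x axis) for the 10997 measured genes, with the antagonists in red and dashed lines at 1.5-fold. Sfrp2 is the lowest point, at -3.88.

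The order of levels differed between the libraries. In shGpx4 it ran Dkk3, Sfrp4, Sfrp1, Wif1, Sfrp2, Frzb, and the counting interval of the Wif1 level (3.06 to 4.16 FPKM) overlapped that of Sfrp1 (3.91 to 4.70 FPKM) and that of Sfrp2 (2.43 to 3.41 FPKM). The Sfrp2 interval also just touched that of Frzb (1.73 to 2.46 FPKM). In shNC the order was Dkk3, Sfrp2, Sfrp4, Wif1, Frzb, Sfrp1, with no overlap between the intervals of these 6 genes. Sfrp4 was at 16.4 times the level of Sfrp2 in shGpx4 and at 0.352 times its level in shNC.

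The summed level of all 9 antagonists was 327 FPKM in shGpx4 and 470 FPKM in shNC, so the sum in shGpx4 was 69.5% of that in shNC (plain log2 ratio -0.53, counting interval -0.56 to -0.49). Dkk3 made up 81.5% of the sum in shGpx4 and 82.7% in shNC, so the total mainly follows this 1 gene. Without Dkk3 the sum was 60.4 FPKM in shGpx4 and 81.4 FPKM in shNC (-0.43). Without Sfrp2 it was 324 and 414 FPKM in shGpx4 and shNC (-0.35). Sfrp2 and Dkk3 were the only measured antagonists lower in shGpx4, so a sum without both is higher there by construction: chosen after the values were seen, it was 57.5 FPKM in shGpx4 and 24.9 FPKM in shNC (1.20).

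The sum of the 5 frizzled-related genes was at 56.8 FPKM in shGpx4 and 78.0 FPKM in shNC (plain log2 ratio -0.46, counting interval -0.54 to -0.38). Its make-up was different. Sfrp4 held 83.7% of this sum in shGpx4 and 25.4% in shNC, whereas Sfrp2 held 5.09% in shGpx4 and 72.3% in shNC. Sfrp1 held 7.56% in shGpx4 and 0.521% in shNC.

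**Figure D4:**
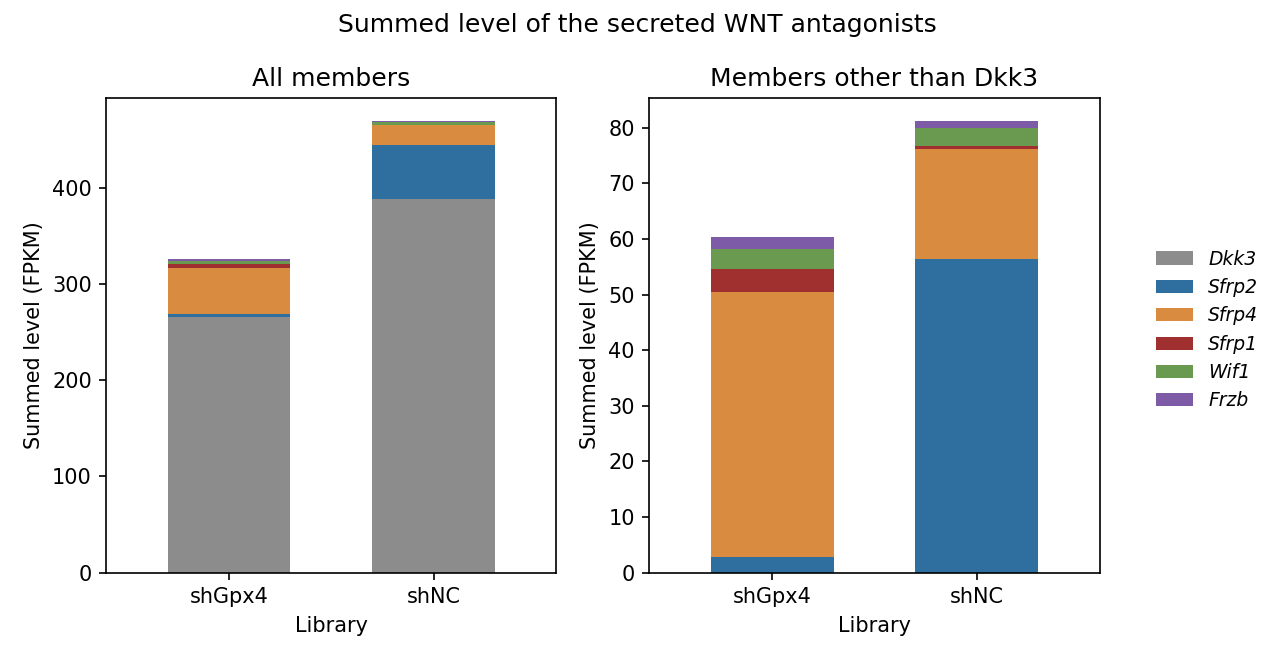
Summed FPKM (y axis) of the antagonists in the shGpx4 and shNC libraries (x axis), stacked by gene, for all members on the left and without Dkk3 on the right. Genes not drawn are at or near 0. Dkk3 fills most of the left bars, and on the right Sfrp4 (47.5 FPKM) is the main part in shGpx4 and Sfrp2 (56.4 FPKM) in shNC.

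On the scale with 1 FPKM added, the genes next to the antagonists stayed under 1.5-fold. Of the 12 nearest measured protein-coding neighbours, 1 on each side of each measured antagonist, none was at least 1.5-fold higher or lower. Over all measured genes only 2.99% were higher by that size and 1.96% lower, so this count is not particular to the neighbours. The neighbours' ratios ran between -0.18 and 0.54 with a median of -0.02. Tlr2, 61957 bases from Sfrp2, was at 34.7 FPKM in shGpx4 and 36.9 FPKM in shNC. Epdr1, 3344 bases from Sfrp4, was at 93.3 FPKM in shGpx4 and 97.6 FPKM in shNC, and Golga7, 152479 bases from Sfrp1, was at 25.1 and 28.5 FPKM in shGpx4 and shNC. The highest neighbour ratio (0.54) was that of Adam3, 1227599 bases from Sfrp1, which was at 2.38 FPKM in shGpx4 and 1.32 FPKM in shNC. In plain FPKM Adam3 was 1.81-fold higher, with a counting interval of 0.28 to 1.44 in log2. The farthest neighbour, Trim27, lies 1546624 bases from Sfrp4.

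The genes with ratios most like that of Sfrp1, among 7848 other protein-coding genes with a mean of at least 5 FPKM, were the protease gene Adamts1, the cytokine gene Tslp and the prostaglandin transporter gene Slco2a1, which differed from it by 0.05, 0.17 and 0.18 in log2. That closeness comes from the added 1 FPKM, which weighs on the low Sfrp1 value in shNC: in plain FPKM these genes were 3.70-fold, 5.04-fold and 5.02-fold higher in shGpx4, against 10.5-fold for Sfrp1. Those nearest to Sfrp2 were Itgbl1, Myoc and Gc, but they differed from it by 1.31, 1.76 and 1.85, so no gene came close to its ratio. Likeness here rests on a single ratio between 2 libraries.

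The rest of the pathway was described with 5 lists of 87 genes, of which 51 were measured. By 1.5-fold or more, 2 were higher in shGpx4 (Wnt16 and Igfbp4), which is 3.92% against 2.99% of all measured genes. Another 5 were lower by that size (Wnt10a, Fzd1, Fzd8, Fzd9 and Bmp4), which is 9.80% against 1.96%. No list was tested.

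Among WNT ligands 4 of 19 were measured. Wnt16, a ligand known for its role in bone and joints, was at 70.4 FPKM in shGpx4 and 39.9 FPKM in shNC (0.80), and Wnt10a was at 2.08 and 4.91 FPKM in shGpx4 and shNC (-0.94). Wnt5a (-0.17) and Wnt5b (-0.12), ligands best known outside the beta-catenin pathway, lay between. The ligands summed to 100.5 FPKM in shGpx4 and 76.8 FPKM in shNC. The summed antagonists were thus at 3.25 times the summed ligands in shGpx4 and 6.12 times in shNC, and without Dkk3 at 0.601 times in shGpx4 and 1.06 times in shNC. The higher ligand sum rests on Wnt16. Without it the ligands summed to 30.05 FPKM in shGpx4 and 36.8 FPKM in shNC, and the summed antagonists were at 10.9 times that in shGpx4 and 12.8 times in shNC, or without Dkk3 at 2.01 and 2.21 times in shGpx4 and shNC. These are ratios of transcripts and not of proteins.

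Of 15 other secreted modulators 7 were measured, with a median of 0.10, and Igfbp4 was the only one of them past 1.5-fold in either direction. Igfbp4, an insulin-like growth factor binding protein gene that also acts on WNT receptors, was at 280 FPKM in shGpx4 and 162 FPKM in shNC (0.79). The R-spondins, which boost WNT signalling, went both ways: Rspo3 had a ratio of 0.44, and Rspo2 was at 123 FPKM in shGpx4 and 162 FPKM in shNC (-0.39). Draxin was at 4.31 FPKM in shGpx4 and 6.60 FPKM in shNC (-0.52). It stayed under 1.5-fold because of the added 1 FPKM, and its plain log2 ratio was -0.62 (counting interval -0.79 to -0.45). Sost, the osteocyte antagonist, and Dkk4 were listed at 0 in both libraries.

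Receptors had a median of -0.21. Of 23 genes 15 were measured and 3 of these lay above 0, against 4537 of 10997 over all measured genes. None was higher by 1.5-fold or more, and Fzd1, Fzd8 and Fzd9 were lower by that size. Over all measured genes 2.99% were higher and 1.96% lower by that size. Fzd4, at 1.81 FPKM in shGpx4 and 1.17 FPKM in shNC, stayed under it (0.37) because of the added 1 FPKM. Its plain log2 ratio was 0.63 (counting interval 0.23 to 1.03). Fzd1 was at 71.9 FPKM in shGpx4 and 118 FPKM in shNC (-0.71), Fzd8 at 24.8 FPKM in shGpx4 and 41.3 FPKM in shNC (-0.71), and Fzd9 was just past 1.5-fold (-0.59), a size it missed after any of the 3 scalings that shift all genes by 0.04. Ror2, a receptor for Wnt5a, was at -0.50. All 15 intracellular transducers were measured and none passed 1.5-fold in either direction, with a median of -0.04 and the farthest being Pygo1 (-0.38), Tcf7l1 (-0.19), Axin1 (-0.17) and Pygo2 (-0.13).

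Of 15 beta-catenin target genes 10 were measured, with a median of 0.30 and 7 of the 10 above 0. None was higher by 1.5-fold or more and 1 was lower by that size. Over all genes 4537 of 10997 were above 0. Bmp4, a bone morphogenetic protein gene, was that one, at 7.67 FPKM in shGpx4 and 13.5 FPKM in shNC (-0.74). Fgf18 (0.42), Myc (0.37) and Fosl1 (0.36) were the farthest above 0. Axin2, the most widely used readout of the pathway and named here after its value was seen, was at 1.33 FPKM in shGpx4 and 0.876 FPKM in shNC, with a counting interval of the plain log2 ratio of 0.05 to 1.17. Lef1, Sp5 and Tnfrsf19 were listed at 0 in both libraries.

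Of the 87 other WNT genes, 36 had a mean under 1 FPKM, of which 19 were listed at 0 in both libraries. For 7 of the 36 the counting interval of the plain ratio excluded 0, with 1 higher in shGpx4 (2.78%) and 6 lower (16.7%). Over all 10881 genes under that mean the shares were 3.05% higher and 2.42% lower. The R-spondin receptor gene Lgr5 had the lowest ratio, at 0.159 FPKM in shGpx4 and 1.18 FPKM in shNC (plain log2 ratio -2.89, interval -3.75 to -2.13), from at least 16 and 110 reads. Nkd1, a feedback inhibitor of the pathway, had 3 reads in shGpx4 and 16 in shNC (-2.53, interval -4.95 to -0.72). Notum, which encodes an enzyme that inactivates WNT proteins, was at 0.406 FPKM in shGpx4 and 0.684 FPKM in shNC. The receptor gene Fzd6 was the higher one, at 0.594 FPKM in shGpx4 and 0.220 FPKM in shNC (1.43, interval 0.71 to 2.20), and Wnt2b, Wnt11 and Ror1 were lower. All genes in this paragraph were picked with their values in view.

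**Figure D5:**
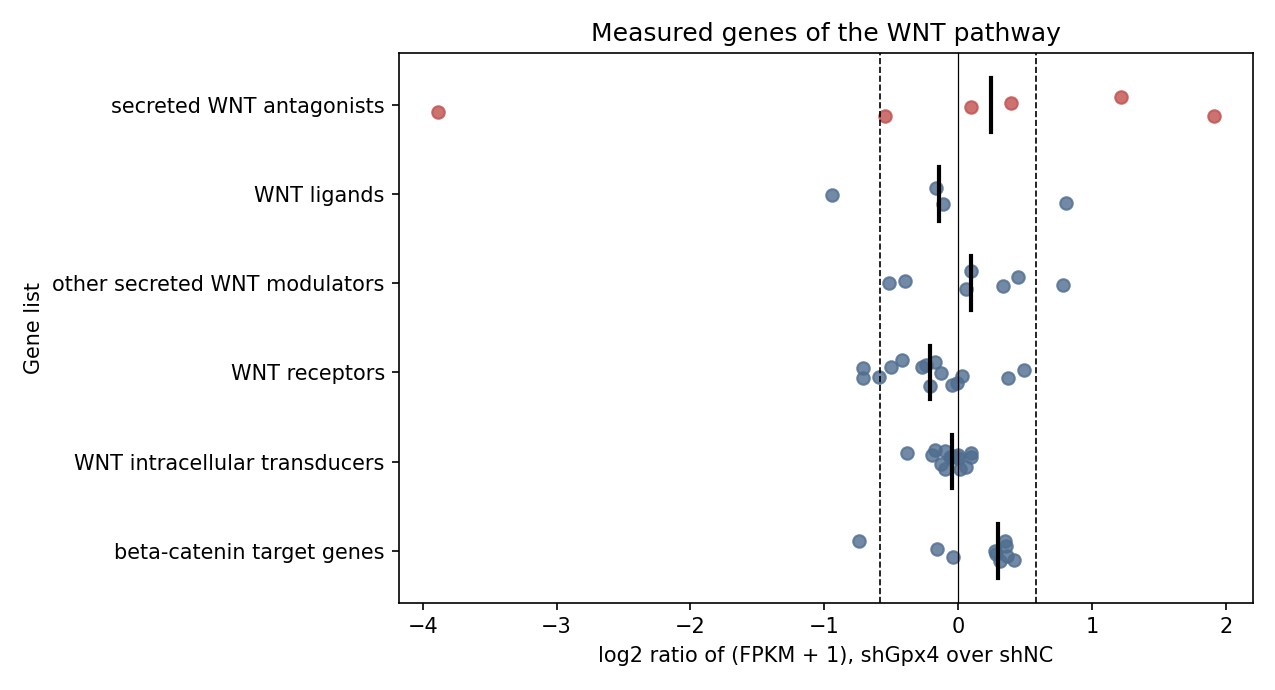
log2 ratio of (FPKM + 1), shGpx4 over shNC (x axis), of each measured gene in 6 lists (y axis), with a bar at each list's median and dashed lines at 1.5-fold. The antagonists span -3.88 to 1.91, and the other lists lie between -0.94 and 0.80.

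Markers of other cell types differed between the libraries beside these results. Over all measured genes, 2.99% were at least 1.5-fold higher in shGpx4 and 1.96% at least 1.5-fold lower. No marker list was tested. Fibroblast markers, 11 of 12 measured, summed to 9828 FPKM in shGpx4 and 7736 FPKM in shNC, with 2 genes at least 1.5-fold higher (Dcn and Thy1), 2 at least 1.5-fold lower (Dpt and Postn) and Pi16 at 0 in both. Without Dcn they summed to 4787 FPKM in shGpx4 and 4929 FPKM in shNC, so the higher sum in shGpx4 rests on that gene. Osteoblast markers, 7 of 12 measured, summed to 8944 FPKM in shGpx4 and 8842 FPKM in shNC, nearly all of it Spp1. They did not go one way. Dmp1, Ibsp, Omd and Phex were at least 1.5-fold lower, while Runx2 (0.07), Dlx5 (0.24) and Spp1 (0.03) lay above 0 and under 1.5-fold. Leukocyte markers, 3 of 9 measured, summed to 23.2 FPKM in shGpx4 and 21.5 FPKM in shNC, but Cd14 was higher by 1.5-fold or more (17.1 FPKM in shGpx4 and 9.19 FPKM in shNC), Lyz2 was lower by that size (1.86 FPKM in shGpx4 and 7.67 FPKM in shNC, -1.60), and the pan-leukocyte gene Ptprc was at 0 in both. Adipocyte markers, 4 of 6 measured, summed to 25.3 FPKM in shGpx4 and 27.7 FPKM in shNC. Most of this was Cebpa (19.6 FPKM in shGpx4 and 19.7 FPKM in shNC). None of the 4 lay above 0, against 4537 of 10997 over all measured genes, and none was lower by 1.5-fold or more. Lpl came nearest to that size, at 0.637 FPKM in shGpx4 and 1.44 FPKM in shNC (plain log2 ratio -1.18, counting interval -1.67 to -0.70). No endothelial or skeletal muscle marker of 6 each was measured. Besides these markers, the 4 Y-linked genes Ddx3y, Eif2s3y, Kdm5d and Uty, listed with earlier results known, were all lower in shGpx4. They had ratios of -1.14 to -0.76 and summed to 14.6 FPKM in shGpx4 and 33.9 FPKM in shNC. The sex of the animals is not stated, and a difference in it between the cultures was not tested. The part of any of these differences in the antagonist values was not tested.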

How the data were processed

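The submitters' processing notes name build GRCm38 and the tools Trimmomatic, HISAT2 and Cufflinks. Their versions and settings and the use of strand are not given here, so overlapping genes may share reads. The deposited values were read as FPKM, from the values and from Cufflinks in those notes. Library totals were recovered from the commonest ratio of shNC to shGpx4 among genes of low level, written as a fraction of whole numbers. Each of the 15153 genes with any signal then gave a whole number of reads over a whole gene length. The largest relative error was 5.0e-15. The reads are the smallest that give both values. Their counting intervals are exact Clopper-Pearson for ratios, exact Poisson for levels and a normal approximation for sums, at 95%, and reads of an amplified library are not independent molecules. With 1 library per group no test was run.

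Members, lists and rules were chosen with earlier results of these data known. Named genes were the members, Gpx4, Col2a1, Sox9, Acan, up to 4 measured genes per WNT list with the largest absolute ratio, the 3 nearest ratios to Sfrp1 and Sfrp2, and measured neighbours. Axin2, the marker genes, genes listed at 0 and WNT genes under 1 FPKM were named after their values were seen. Of 20 chondrocyte markers 2 were not matched by symbol. Neighbours and positions come from RefSeq (GRCm38.p6), matched by Entrez number. Alternatives were a pseudocount of 0.1, 4 scalings, other filters on the mean, 2-fold, recovered reads with 0.5 added, and sums without single members. The computation was tested on simulated data. The software was pandas 2.3.3 and scipy 1.17.1 with numpy 2.4.6 under Python 3.11.15, with plots from matplotlib 3.10.9.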

Additional observations from a re-analysis of the deposited data

How the results depend on the processing

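Of 200 values under alternatives, 167 stayed within set limits. These were counting error for ratios and sums, 1.5 times for counts, and 0.1 in log2 with the same sign for list medians. Each of the 6 measured antagonists kept its direction under every alternative run. With a pseudocount of 0.1, the ratio of Sfrp1 was 3.11 and that of Sfrp2 -4.24; with recovered reads and 0.5 added they were 3.38 and -4.28, since less is added to low values. Centring on the median shifted all ratios by 0.04 (log2). The 75th percentile and the trimmed mean shifted FPKM by 0.04 each (log2) before 1 FPKM was added, so the ratios of low genes moved less. In that order, these 3 scalings gave -0.51, -0.50 and -0.50 for Dkk3 and -0.49, -0.49 and -0.48 for the sum of all members. They gave -0.51, -0.51 and -0.50 for the dickkopf sum. The sum of all members was -0.43 without Dkk3 and -0.35 without Sfrp2. Without both, an alternative chosen after seeing the data, it reversed to 1.20 by construction. With a mean of at least 5 FPKM, 1 antagonist was higher, Sfrp1 being removed, and 3 other WNT genes were lower. At 2-fold, 0 other WNT genes were higher and 0 lower. Of the other WNT lists' single counts and medians, 11 of 115 moved. Also chosen after seeing the data, the ligand sum without Wnt16 reversed to -0.29 and the fibroblast marker sum without Dcn to -0.042. No paired analysis was possible because each group has 1 library. Depth limits Dkk1, Dkk2 and Sfrp5, and without replicates no value here has an error between cultures.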
